A study of Mus musculus with 14 samples.

Results

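The genes described here are MYC, the transcription factor that promotes cell growth, and 35 genes of ribosome biogenesis. The 36 genes were taken by symbol from a list of genes with these roles, and all 36 were found among the 20284 genes that the arrays' probes could be assigned to. They were followed across mouse progenitors, dendritic cells and neutrophils on 1-colour Agilent microarrays, which report how brightly Cy3-labelled RNA lights up each probe. The series has 7 groups of 2 arrays, 14 arrays in all, from primary cells of C57BL/6 mice.

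Granulocyte-monocyte progenitors (GMP) were taken from marrow, for 1 group from wild-type (WT) mice and for another from mice labelled IRF8KO, which are deficient in the transcription factor IRF8. Both GMP groups were gated as lineage-, IL-7R-, Sca-1-, CD115-, CD117+ and CD16/32+. The other groups were all wild-type. Common dendritic cell progenitors (CDP) from marrow shared the first 3 exclusions and were CD117 intermediate, CD115+ and CD135+. Precursors of classical dendritic cells (pre-cDC) from marrow were lineage-, CD11c+, MHC-II-, CD135+ and CD172a+. Spleen gave classical dendritic cells (cDC), CD11c+ and MHC-II+, that were either CD4+ CD8- or CD4- CD8+. Neutrophils (Neu) were CD11b+ Ly6G-high marrow cells. CD4+ cDC were separated with magnetic beads alone, neutrophils by flow sorting alone, and the rest by both in turn. No age is given, and the labels do not say whether the 2 arrays of a group stand for separate animals; p-values therefore measure the spread between arrays, which may be technical. Ly6C+ monocytes, named in the study's title, were not analysed here.

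Ribosomes are assembled in the nucleolus. RNA polymerase I transcribes the long ribosomal RNA precursor, guide-RNA particles of the box C/D and box H/ACA classes methylate it and convert uridines to pseudouridine, and separate sets of assembly factors cut, fold and export the small and the large subunit. MYC binds DNA as a dimer with MAX at the E-box CACGTG and is known to raise transcription of many genes of this pathway in growing cells; MXD1, MNT and related proteins compete for MAX. In blood formation, cycling progenitors make ribosomes at a high rate, and mature neutrophils are post-mitotic cells with condensed nuclei and little RNA.

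A level below is the log2 of a probe's signal divided by the 75th percentile of signals on the same array, so that 0 is that percentile. Levels are compared between groups for the same probe, never between genes. Where a gene had several probes, the brightest was used. Because every array is scaled to its own percentile, a change in total RNA per cell is not visible, and in sorted bulk cells fewer expressing cells and less RNA per cell cannot be told apart. "Well above background" is the scanner software's own call for a spot. A comparison tested the genes that both arrays of 1 or both of its groups showed well above background, and a change is called where limma's moderated test gave a Benjamini-Hochberg adjusted p below 0.05 over all genes tested.

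Groups expressed their own marker lists: all 6 of 6 neutrophil markers in Neu, 6 of 6 in WT GMP, 4 of 4 in CDP, 5 of 5 in pre-cDC, 5 of 5 in CD8+ cDC and 4 of 4 in CD4+ cDC were well above background on both arrays. This call did not set the groups apart. The GMP list was also 6 of 6 on the arrays labelled IRF8KO and in CDP, pre-cDC, CD4+ cDC and Neu. The neutrophil list was 6 of 6 on the arrays labelled IRF8KO and in pre-cDC and CD4+ cDC. The CDP list was 4 of 4 in every group but Neu, and the pre-cDC list 5 of 5 in CDP and both cDC groups. Cd4 was well above background in every group and averaged 3.64 in Neu and 3.35 in CD4+ cDC. CD4+ cDC lay on a smaller array design, scaled over its own probes, so these averages cannot be ranked. The 2 arrays of a group correlated with r between 0.991 and 0.996 over all genes, and the number of arrays limits the precision. The gene named in the genotype goes against its label: the Irf8 probe stood at 4.79 and 4.87 in WT GMP and at 6.22 and 6.17 on the arrays labelled IRF8KO, a rise of 1.36 ± 0.07 (SE; adjusted p 1.39e-05). The position of that probe relative to the deleted part is not stated in the labels or files, so the values do not check the label. As read from the names of the scanner output, both GMP groups lay on 1 slide and CD8+ cDC and Neu on another. CDP, pre-cDC and CD4+ cDC each had a slide of their own by the same reading. For the comparisons CDP with GMP, pre-cDC with CDP, CD8+ cDC with pre-cDC and Neu with GMP, slide and cell type cannot be told apart.

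Myc itself was high in both GMP groups, lower in CDP, lower again in pre-cDC and cDC, and not detected above background in neutrophils. It stood at 4.25 and 4.17 in WT GMP, 4.57 and 4.68 on the arrays labelled IRF8KO, 2.52 and 2.66 in CDP, 0.74 and 0.36 in pre-cDC, 0.63 and 0.84 in CD8+ cDC and -3.86 and -3.72 in Neu. The groups do not overlap except pre-cDC and CD8+ cDC, the only neighbours in the order of the 6 groups whose arrays overlap. The fall from WT GMP to CDP was -1.62 ± 0.13 (SE; adjusted p 1.19e-05) and that from CDP to pre-cDC -2.04 ± 0.13 (adjusted p 2.58e-06). CD8+ cDC differed from pre-cDC by 0.18 ± 0.13 (adjusted p 0.245), which did not pass the test. On Neu arrays the Myc spot was not well above background on either array, so that only a bound can be given: at least 137-fold lower than in WT GMP (adjusted p 4.67e-10) and at least 12.3-fold lower than in CD8+ cDC (adjusted p 1.12e-08). Such bounds set the bright group's mean against the dimmest signal that still counted as well above background on each array of the dim group, or the gene's own signal there where that was higher.

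The promoters of the 35 partner genes can be set beside the E-box that MYC and MAX bind. RefSeq (GRCm38.p6) gave a window from 250 bases before to 50 bases after the transcription start for 31 of the 36 genes; Myc, Npm1, Fbl, Bop1 and Rrp12 were not matched. CACGTG, which reads the same on both strands, occurred in the windows of 7 of 31 genes (22.6%), against 8.09% of the 27025 genes in the table. The following stretches, 5′ to 3′ on the gene's strand, show these 7 matches with CACGTG in capitals.
Mybbp1a: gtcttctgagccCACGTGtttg
Utp20: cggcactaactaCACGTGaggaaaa
Wdr43: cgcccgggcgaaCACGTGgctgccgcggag
Pno1: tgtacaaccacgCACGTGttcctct
Tsr1: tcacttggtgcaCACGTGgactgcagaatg
Pes1: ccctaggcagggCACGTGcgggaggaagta
Nop2: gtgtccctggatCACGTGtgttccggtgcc
They lie at chr11:72441355-72441376 (+ strand, Mybbp1a), chr10:88826765-88826789 (- strand, Utp20), chr17:71616220-71616249 (+ strand, Wdr43), chr11:17211540-17211564 (- strand, Pno1), chr11:74898092-74898121 (+ strand, Tsr1), chr11:3963965-3963994 (+ strand, Pes1) and chr6:125131811-125131840 (+ strand, Nop2). In 6 of the 7 the motif begins just after the annotated start: 2 bases after it in Pes1, 17 in Wdr43, 24 in Tsr1, 37 in Pno1 and Utp20, and 40 in Mybbp1a. Nop2, which encodes a methyltransferase of the large subunit's RNA, is the exception, with the motif beginning 60 bases before the start. Its 250 upstream bases, chr6:125131633-125131882 on the + strand, are shown because they also hold the other motif that was frequent among the windows, CCGGAAG, the core bound by ETS-family factors, which begins 38 bases before the start; both motifs are in capitals.
Nop2 promoter: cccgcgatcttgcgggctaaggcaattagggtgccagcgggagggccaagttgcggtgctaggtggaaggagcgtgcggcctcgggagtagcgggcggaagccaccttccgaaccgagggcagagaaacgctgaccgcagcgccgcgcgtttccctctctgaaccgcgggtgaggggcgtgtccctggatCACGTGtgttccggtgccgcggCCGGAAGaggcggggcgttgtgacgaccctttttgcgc
CCGGAAG, searched on both strands, occurred in those of 10 of 31 genes (32.3%: Gar1, Nhp2, Nolc1, Polr1e, Heatr1, Tsr1, Nop2, Wdr74, Ebna1bp2 and Noc2l), against 9.93% of all genes in the table. Matches of the 2 motifs overlapped in 0 of the 31 genes. A match is a description of the letters in these windows and shows no binding.

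Across the 6 groups measured on the same array design, 22 of the 36 genes were highest in WT GMP and 33 were lowest in neutrophils. By comparison, 9.25% of the 13552 genes well above background in some group were highest in WT GMP and 33.7% were lowest in Neu. CDP was the highest group for 8 genes (Nop56, Nop58, Nhp2, Ncl, Pno1, Bysl, Bop1 and Nop16), the arrays labelled IRF8KO for 3 (Myc, Npm1 and Noc2l), CD8+ cDC for 2 (Fbl and Pes1) and Neu for 1 (Polr1a). Over all 13552 genes the shares highest in these groups were 27.1%, 9.77%, 12.5% and 33.0%, and none of these counts exceeded its share. The shares over all genes are given for the main setting only. The other probes of Pes1, Nop56 and Ncl, dimmer than those used, were highest in WT GMP. Which progenitor stood highest depended on the scaling: in the authors' table and under quantile normalisation, WT GMP was highest for 32 genes and CDP for 0, with the percentile over detected probes for 31 and 1, after normexp background correction for 28 and 1, and with array medians for 17 and 8, with 10 on the arrays labelled IRF8KO. In all 5 of these settings, chosen for this count after its values were seen, 34 or 35 genes were lowest in Neu. The genes not lowest in Neu were Polr1a and Ebna1bp2, lowest in pre-cDC, and Bysl, lowest in CD8+ cDC. The median range between a gene's highest and lowest group mean was 5.51 log2 units for the 36 genes and 2.57 for all 13552. The genes were on the whole tightly measured: the median difference between the 2 arrays of a group over the 36 genes lay between 0.04 and 0.14.

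**Figure D1:**
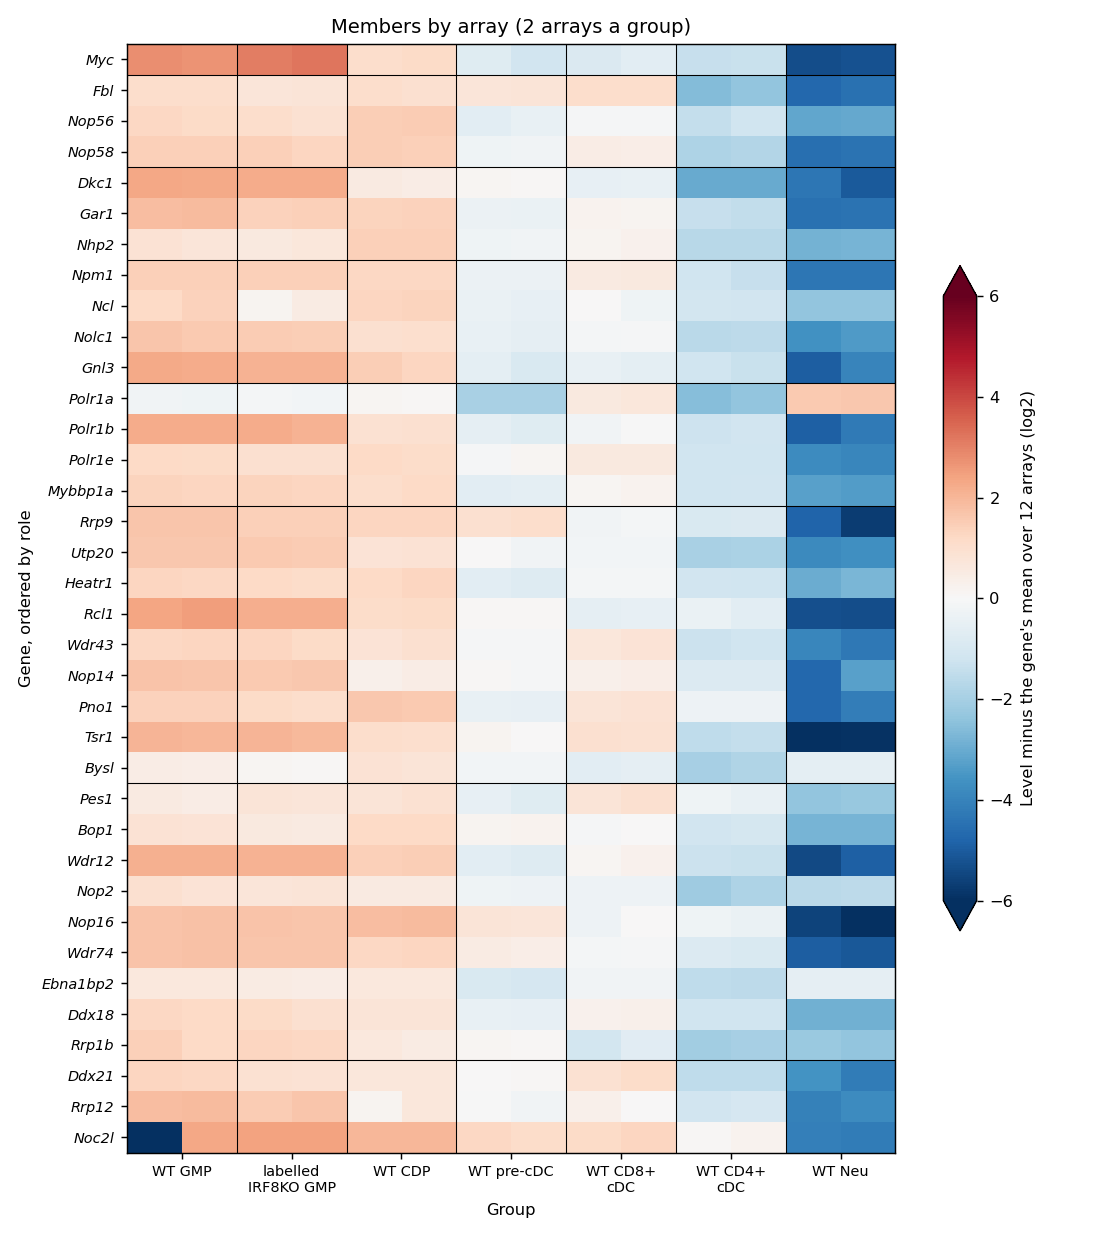
Level of each of the 36 genes on each of the 14 arrays, as log2 difference from the gene's mean over the 12 arrays of the larger design, with genes ordered by role and 2 columns per group; the colour scale is clipped at -6 and 6. CD4+ cDC, on the smaller design, are scaled over that design's own probes. Among the 6 groups of the larger design Neu is the lowest for 33 genes, and the dark Noc2l spot of WT GMP replicate 1 stands alone in its group.

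A single array value sets the Noc2l results apart from the rest. Noc2l, an inhibitor of histone acetyltransferases that also localises to the nucleolus, was read at -5.27 in WT GMP replicate 1, where its only spot was not well above background, and at 4.64 in replicate 2. The arrays labelled IRF8KO, CDP and CD8+ cDC stood at 4.75 and 4.74, 4.34 and 4.34 and 3.49 and 3.63, and Neu at -1.75 and -1.86. Its SE of 2.55 left it uncalled in all 6 comparisons. Without WT GMP replicate 1 the change from WT GMP to CDP was -0.30 and called (adjusted p 0.0237), in place of 4.65 ± 2.55; without replicate 2 it was 9.61. The change from WT GMP to Neu, -1.49 with both, was -6.44 without replicate 1 and 3.47 without replicate 2. Noc2l stays among the 36 genes counted below.

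In neutrophils against WT GMP, 34 of 36 genes were lower and 1, Polr1a, was higher; of all 12520 genes tested, 92.4% were called, 46.4% lower and 46% higher. The median change of the 36 genes was -5.38, against -0.00 for all genes tested, and -5.08 when the 13 genes that were not well above background on either Neu array were set at their bounds. The groups did not overlap for 35 of the 36, as for 96.8% of all genes tested. This was the largest of the 6 shifts, and its call count was the same under all 5 other scalings and background settings tried, at 34 lower and 1 higher. Only 20 of the 36 were well above background on all 4 arrays, and of these 19 were lower. The 6 neutrophil markers summed to 9216 to 10140 times the array percentile in Neu and 9.63 to 10.1 in WT GMP, and 5 erythroid markers, 4 of them lower and 1, Hba-a1, higher in Neu, to 7.55 to 7.94 and 49.4 to 50.3; the part of such cells was not tested.

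The RNA-modifying particles fell as a group in neutrophils. Fbl, the methyltransferase of box C/D particles, stood at 5.48 and 5.48 in WT GMP and -0.26 and -0.03 in Neu, a change of -5.62 ± 0.08 (adjusted p 2.32e-10). Its partners Nop58 and Nop56 changed by -5.90 ± 0.06 and -4.29 ± 0.08. Dkc1, the pseudouridine synthase of box H/ACA particles, was at 2.64 and 2.60 in WT GMP and not well above background in Neu (-4.03 and -4.74), at least 45.6-fold lower (adjusted p 5.15e-09). All 6 members of the 2 particle classes were called lower, with Nhp2 the least changed at -3.60 ± 0.07.

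The nucleolar chaperones and scaffolds fell too, all 4 of 4. Npm1, nucleophosmin, an abundant chaperone of the granular part of the nucleolus, was at 7.77 and 7.79 in WT GMP and 2.0 and 2.02 in Neu (-5.77 ± 0.04; adjusted p 5.95e-11). Ncl, nucleolin, which binds ribosomal RNA precursors, was at 6.81 and 7.0 and 3.26 and 3.27 (-3.64 ± 0.14; adjusted p 3.58e-08). The arrays of the 2 groups lay far apart for both genes. Gnl3, nucleostemin, was at least 69.5-fold lower, and Nolc1 changed by -5.15 ± 0.08.

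RNA polymerase I split by subunit. Polr1b, the second-largest subunit, stood at 2.99 and 2.98 in WT GMP and below the background call in Neu (-4.15 and -3.51), at least 58.6-fold lower (adjusted p 5.01e-09). Polr1a, the largest subunit, went the other way, from 3.40 and 3.36 in WT GMP to 5.17 and 5.22 in Neu, 1.81 ± 0.06 (adjusted p 1.31e-08); the arrays do not overlap. Neu was the highest of the 6 groups for Polr1a, which 1 probe measured. Polr1e, an associated factor, and Mybbp1a, a regulator of polymerase I transcription, changed by -5.01 ± 0.08 and -4.64 ± 0.07.

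All 9 of the small-subunit factors were lower in neutrophils, by a median of -5.39 with the 5 that were not well above background in Neu set at their bounds. Tsr1, which is needed for a late cut in the small subunit's RNA, was at 2.99 and 2.97 in WT GMP and -5.23 and -4.95 in Neu, where it was not well above background, at least 58.6-fold lower (adjusted p 1.34e-10). Rcl1, an endonuclease of early processing, was at 2.95 and 3.09 and -4.67 and -4.72, at least 60.3-fold lower (adjusted p 5.95e-11). Rrp9, a protein of the U3 particle, was at least 48.6-fold lower and Nop14 at least 32.2-fold. Bysl, a late small-subunit factor, was the least changed of the 9, at 3.45 and 3.41 in WT GMP and 2.41 and 2.42 in Neu (-1.01 ± 0.06; adjusted p 4.77e-07).

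All 9 large-subunit factors were lower as well, by a median of -3.64. In the PeBoW complex, which joins Pes1, Bop1 and Wdr12, Pes1 went from 2.37 and 2.30 in WT GMP to -0.51 and -0.44 in Neu (-2.81 ± 0.10; adjusted p 2.05e-08), Bop1 changed by -3.64 ± 0.05, and Wdr12 was at least 39.8-fold lower. Nop16 was at least 71.3-fold and Wdr74 at least 64.9-fold lower. Ebna1bp2 kept the highest share of its GMP level, changing by -1.18 ± 0.05 (adjusted p 9.22e-08) on its brightest probe and by -2.26 and -2.79 on its other 2. Among the genes with CACGTG in the windows shown, Tsr1 was at least 58.6-fold lower and Nop2 changed by -2.48 ± 0.06.

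**Figure D2:**
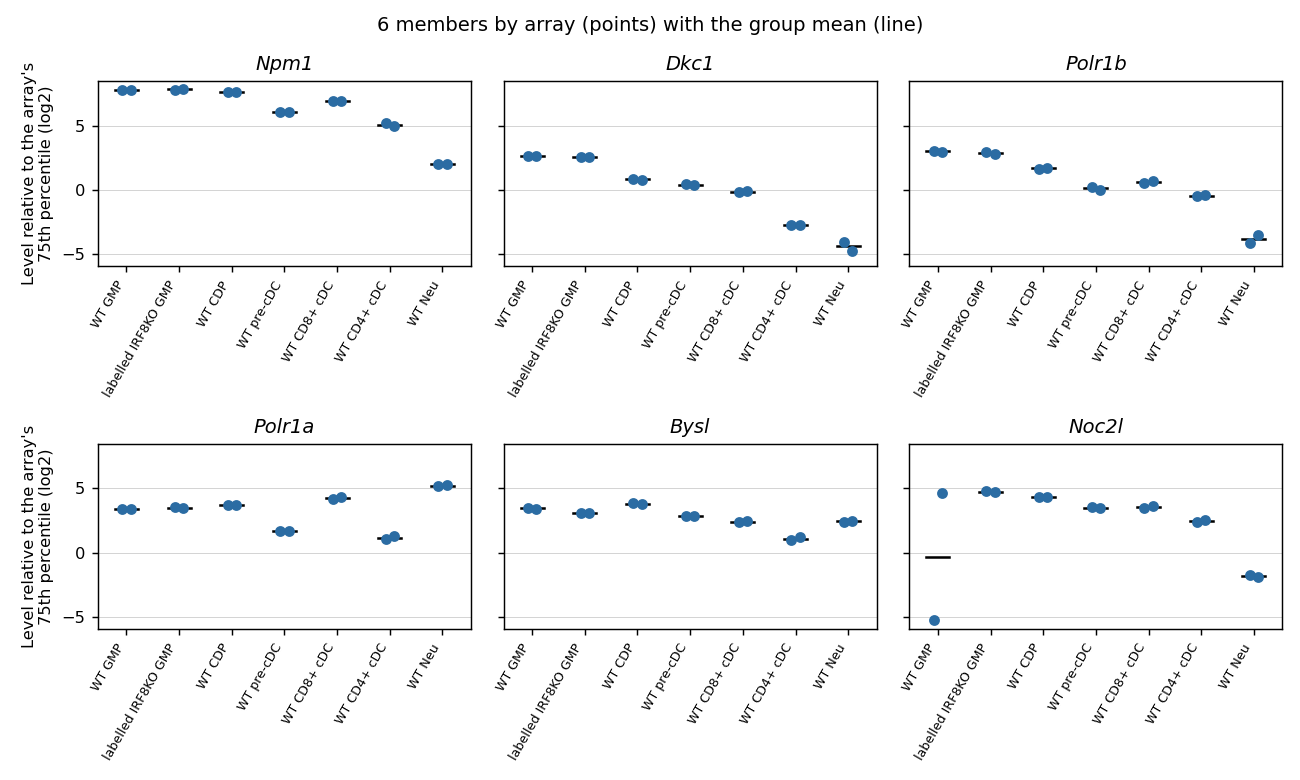
Levels of Npm1, Dkc1, Polr1b, Polr1a, Bysl and Noc2l on each array (points) with the group mean (line), as log2 relative to the array's 75th percentile. CD4+ cDC are scaled over their own design's probes. Npm1, Dkc1 and Polr1b are lowest in Neu, Polr1a is highest there, and the Noc2l point of WT GMP replicate 1 lies at -5.27.

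CD8+ cDC against neutrophils gave the mirror of this pattern within 1 slide: 33 of 36 genes were higher in CD8+ cDC and 1, Polr1a, lower, where 85.8% of all 12817 genes tested were called, 43.9% higher and 41.9% lower. This comparison shares the Neu arrays with the previous one, so the agreement in direction is not separate evidence. The median change was 4.29 (3.40 with 13 genes at their bounds), against -0.00 for all genes tested, and the groups did not overlap for 35 of 36, as for 93.8% of all genes. Fitted on these 4 arrays alone, 34 were higher and 1 lower. Fbl stood at 5.49 and 5.49 in CD8+ cDC, 5.63 ± 0.08 above Neu (adjusted p 2.48e-10). Tsr1, at 1.93 and 1.89, was at least 27.9-fold higher (adjusted p 2.27e-10), and Nop16, at 1.21 and 1.54, at least 19.3-fold (adjusted p 1.73e-08). Polr1a, at 4.18 and 4.31, was lower by -0.95 ± 0.06 (adjusted p 9.29e-07). Bysl did not pass the test, at 2.34 and 2.44 in CD8+ cDC and 2.41 and 2.42 in Neu (-0.02 ± 0.06; adjusted p 0.705), and the arrays overlap. The 6 neutrophil markers summed to 20.5 to 21.5 in CD8+ cDC and the 5 erythroid markers to 182 to 199. Hba-a1, an alpha-globin gene, carried nearly all of the erythroid sum, with a mean level of 7.57 in CD8+ cDC and 2.68 in Neu; of the 3 erythroid markers tested, 2 were higher and 1 lower in CD8+ cDC. Their part was not tested.

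**Figure D3:**
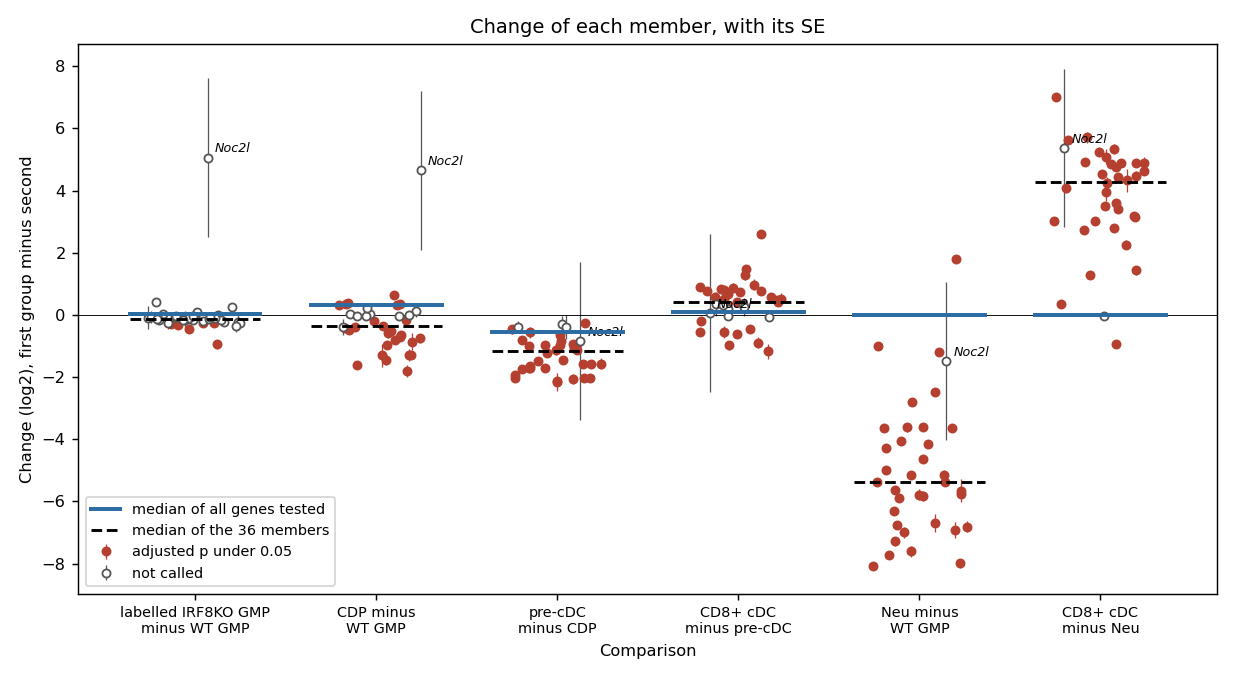
Change (log2) of each of the 36 genes with its SE in the 6 comparisons, filled red where the adjusted p was under 0.05 and open where it was not, with the median of all genes tested (blue) and of the 36 genes (dashed). The 36 genes lie far below the median of all genes in Neu against WT GMP and far above it in CD8+ cDC against Neu, and Noc2l carries the widest SE.

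On the dendritic branch the fall was smaller and came in steps. From CDP to pre-cDC, 32 of 36 genes were lower and 0 higher, where 84.2% of all 11481 genes tested were called, 60.3% lower and 23.9% higher. The median change was -1.17 for the 36 genes and -0.54 for all genes, a difference of -0.63, and the groups did not overlap for 36 of 36, as for 92.6% of all genes. The shift of all genes depends on the scaling: under quantile normalisation it was -0.23 and with the percentile taken over probes detected on all 12 arrays 0.01, and the 36 genes then gave 30 and 28 lower, with 1 higher in each. Dkc1, Rrp9, Nop14 and Noc2l did not pass the test at the main setting. The neutrophil markers summed to 0.699 to 0.711 in CDP and 52.3 to 54.7 in pre-cDC, and the erythroid markers, 2 of the 4 tested higher and 1 lower in pre-cDC, to 2.53 to 2.61 and 5.72 to 5.87; their part was not tested.

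The largest falls from CDP to pre-cDC were those of Gnl3, Wdr12 and Pno1. Gnl3 went from 2.48 and 2.26 to 0.38 and 0.06 (-2.15 ± 0.28; adjusted p 0.000161). Wdr12 went from 1.71 and 1.74 to -0.32 and -0.49 (-2.13 ± 0.15; adjusted p 4.1e-06), and Pno1, a small-subunit factor that binds the 3′ end of its RNA, from 4.36 and 4.36 to 2.33 and 2.27 (-2.06 ± 0.16; adjusted p 5.72e-06). None of the 3 had overlapping arrays.

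The median changes by role differed at this step. They were -1.70 for box C/D, -1.66 for box H/ACA, -1.67 for chaperones and scaffolds, -1.64 for polymerase I, -1.11 for the large subunit, -0.97 for the small subunit and -0.64 for the 3 helicase, export and histone factors. Npm1 went from 7.60 and 7.61 to 6.02 and 6.02 (-1.59 ± 0.04; adjusted p 1.16e-07) and Ncl from 6.92 and 6.94 to 5.25 and 5.12 (-1.74 ± 0.14; adjusted p 7.17e-06). Polr1b went from 1.66 and 1.71 to 0.22 and 0.02 (-1.57 ± 0.18; adjusted p 8.16e-05), and Pes1 from 2.63 and 2.74 to 1.36 and 1.11 (-1.45 ± 0.10; adjusted p 2.76e-06). For these 4 genes every pre-cDC array was below every CDP array on the probe used. The other probe of Ncl read -0.82 and that of Pes1 -0.26, and the 4 Npm1 probes ranged from -2.04 to -0.40. Dkc1 was at 0.85 and 0.77 in CDP and 0.45 and 0.39 in pre-cDC (-0.39 ± 0.19; adjusted p 0.0873). Fbl changed the least of the called genes, from 5.49 and 5.42 to 5.15 and 5.22 (-0.27 ± 0.08; adjusted p 0.0111), and its direction was reversed in 4 of the other settings: 0.36 under quantile normalisation, 0.29 with the percentile over detected probes, 0.12 after normexp background correction and 0.38 in the authors' table.

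From WT GMP to CDP the genes divided: 20 of 36 were lower and 6 higher, where 78% of all 11899 genes tested were called, 26.1% lower and 51.9% higher. Their median change was -0.37 and that of all genes 0.31, a difference of -0.68; the groups did not overlap for 30 of 36, as for 91.4% of all genes. The 6 higher genes do not withstand a change of scaling, and 0 of 36 were called higher under quantile normalisation, with the percentile over detected probes, after normexp or in the authors' table, with 28, 30, 32 and 28 lower. Between 65.2% and 66.5% of calls over all genes were rises at the main setting and with array medians, 51.7% under quantile normalisation and 40.4% with the percentile over detected probes.

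The largest falls into CDP were those of Dkc1, Myc and Rrp12. Dkc1 went from 2.64 and 2.60 in WT GMP to 0.85 and 0.77 in CDP (-1.81 ± 0.19; adjusted p 4.86e-05). Rrp12, which takes part in the export of both subunits, went from 0.68 and 0.74 to -0.98 and -0.49 (-1.45 ± 0.18; adjusted p 0.000116). Polr1b went from 2.99 and 2.98 to 1.66 and 1.71 (-1.30 ± 0.18; adjusted p 0.000298). The arrays were apart for all 3 genes, whose direction was the same in every setting tried.

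The rises into CDP were smaller, and each turned with the scaling. Nhp2 went from 6.32 and 6.16 to 6.91 and 6.88 (0.65 ± 0.07; adjusted p 4.28e-05) at the main setting, and its change was -0.15 under quantile normalisation. Bysl went from 3.45 and 3.41 to 3.86 and 3.76 (0.38 ± 0.06; adjusted p 0.000425) and its change was -0.091 under quantile normalisation, -0.13 with the percentile over detected probes and -0.16 after normexp. Pes1 went from 2.37 and 2.30 to 2.63 and 2.74 (0.35 ± 0.10; adjusted p 0.0105) but its change was -0.16 with the percentile over detected probes, and its other probe read -1.11. Bop1, Polr1a and Nop56, the other 3 called higher, turned as well. Fbl at -0.03 ± 0.08 (adjusted p 0.768) and Ncl at 0.03 ± 0.14 (adjusted p 0.856) did not pass the test and their arrays overlap; the other Ncl probe read -1.60. Npm1 fell by a small amount, from 7.77 and 7.79 to 7.60 and 7.61 (-0.17 ± 0.04; adjusted p 0.00621), a call lost with array medians, while its 4 probes ranged from -1.08 to 0.33.

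Probes of 1 gene often disagreed in sign at this step. Of the 11 genes with several probes, 5 (Ncl, Nop56, Polr1e, Npm1 and Pes1) had probes of opposite sign from WT GMP to CDP, against 1 in the comparison of the GMP groups, 4 from pre-cDC to CD8+ cDC and 0 in the other 3 comparisons. The probe dimmest in WT GMP read lowest in Ncl (-1.60), Nop56 (-0.85), Npm1 (-1.08) and Pes1 (-1.11), but highest in Polr1e (0.25). The CDP arrays were dimmer, with a 75th percentile signal of 77.5 and 77.4, against 487 and 516 in WT GMP. The part of array brightness was not tested. Markers of red-cell precursors also moved here: all 5 erythroid genes were lower in CDP, and their summed level was 49.4 to 50.3 in WT GMP and 2.53 to 2.61 in CDP. The 6 neutrophil markers summed to 9.63 to 10.1 in WT GMP and 0.699 to 0.711 in CDP. The part of such cells in the changes of the 36 genes was not tested.

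From pre-cDC to CD8+ cDC the genes turned partly upward: 20 of 36 were higher and 8 lower, where 74.7% of all 12597 genes tested were called, 40.3% higher and 34.4% lower. The median change was 0.42 for the 36 genes and 0.08 for all genes. The groups did not overlap for 32 of 36, as for 87.2% of all genes. With array medians in place of the percentile the calls were 22 higher and 4 lower. CD8+ cDC came from spleen and pre-cDC from marrow, so tissue and cell type cannot be told apart either, and the 5 erythroid markers summed to 5.72 to 5.87 in pre-cDC and 182 to 199 in CD8+ cDC. That sum was nearly all Hba-a1, whose mean level was 2.01 in pre-cDC and 7.57 in CD8+ cDC; the other 3 erythroid markers tested (Car1, Epor and Gata1) were lower in CD8+ cDC. Their part was not tested.

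All 4 polymerase I genes were among those higher in CD8+ cDC. Polr1a, the gene with the largest rise, went from 1.65 and 1.66 to 4.18 and 4.31 (2.59 ± 0.06; adjusted p 1.43e-08). Polr1b went from 0.22 and 0.02 to 0.55 and 0.71 (0.51 ± 0.18; adjusted p 0.036), a call lost when any 1 of the 4 arrays was left out. Pes1 went from 1.36 and 1.11 to 2.63 and 2.79 (1.48 ± 0.10; adjusted p 3.42e-06) and Pno1 from 2.33 and 2.27 to 3.52 and 3.63 (1.27 ± 0.16; adjusted p 0.000136). Npm1 rose by 0.90 ± 0.04 (adjusted p 5.72e-07) and Fbl by 0.31 ± 0.08 (adjusted p 0.00703). The other Pes1 probe read 0.71, and the 4 Npm1 probes ranged from 0.13 to 0.98.

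The 8 genes lower in CD8+ cDC came from several roles. Rrp9 went from 2.02 and 2.08 to 0.83 and 0.94 (-1.17 ± 0.24; adjusted p 0.00288). Rrp1b, a nucleolar factor of the large subunit, went from 0.40 and 0.38 to -0.78 and -0.39 (-0.98 ± 0.14; adjusted p 0.000335), and Nop16 from 2.28 and 2.25 to 1.21 and 1.54 (-0.89 ± 0.18; adjusted p 0.00255). Each was below its pre-cDC level on both CD8+ arrays. Dkc1 changed by -0.56 ± 0.19 (adjusted p 0.0286), a call lost when any 1 of the 4 arrays was left out, under quantile normalisation, with array medians and in the authors' table. The others were Rcl1, Bysl, Bop1 and Wdr74. Ncl changed by 0.34 ± 0.14 (adjusted p 0.0528), which did not pass the test, and its other probe read -0.25. Wdr74 turned from -0.55 ± 0.06 to 1.18 in the authors' table, which holds 1 value for the 10 spots of its probe. Of 432 such probes with several spots, 257 lay over 5000 ranks from their scanner values on each pre-cDC array in that table, and 1 to 33 on the other arrays.

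CD4+ cDC were measured on a smaller array design and entered no test. With the percentile taken over the 39340 probes that both designs hold, 27 of the 36 genes had a lower mean in CD4+ than in CD8+ cDC, 21 of them on all arrays, and 9 a higher mean, 7 of them on all arrays; the median difference was -0.23. Against pre-cDC, 16 were lower and 20 higher (median 0.05), against WT GMP 34 lower (median -1.39) and against Neu 33 higher (median 3.50). On that scale Fbl averaged 1.96 in CD4+ cDC and 4.40 in CD8+ cDC, Polr1a 1.15 and 3.16, and Dkc1 -2.72 and -1.23. Myc went the other way, with 0.14 in CD4+ and -0.36 in CD8+ cDC. Array design, slide, sorting method and cell type cannot be told apart here. No such counts were made over all genes, so these do not set the 36 genes apart from the rest.

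Between the GMP groups the differences were small. On the arrays labelled IRF8KO, 6 of 36 were lower and 0 higher, where 25.2% of all 12156 genes tested were called, 9.98% lower and 15.2% higher. The median change was -0.13 for the 36 genes and 0.04 for all genes. The groups did not overlap for 32 of 36, as for 74.9% of all genes. Both groups lie on 1 slide, and the fit on these 4 arrays alone gave 9 lower and 2 higher (Myc and Pes1).

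The 6 lower genes were Ncl, Gar1, Bysl, Fbl, Bop1 and Rcl1. Ncl stood at 6.81 and 7.0 in WT GMP and 5.78 and 6.13 on the arrays labelled IRF8KO (-0.95 ± 0.14; adjusted p 0.00214), but its other probe read -0.20. Gar1, a box H/ACA protein, went from 5.43 and 5.49 to 5.0 and 5.03 (-0.45 ± 0.05; adjusted p 0.000821), and Bysl from 3.45 and 3.41 to 3.11 and 3.08 (-0.33 ± 0.06; adjusted p 0.00491). The arrays do not overlap for these 3 genes. Fbl, from 5.48 and 5.48 to 5.15 and 5.2 (-0.31 ± 0.08; adjusted p 0.0243), lost its call when any 1 of the 4 GMP arrays was left out. Rcl1 lost its call without 3 of the 4, all but WT GMP replicate 1, and Bop1 without WT GMP replicate 1.

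Myc, Npm1, Dkc1, Polr1b and Pes1 did not pass the test. Myc was higher by 0.41 ± 0.13 (adjusted p 0.0596), with both arrays above both WT GMP arrays, and was called in the fit on the 4 arrays alone (adjusted p 0.0286), after normexp (adjusted p 0.0108) and with either pre-cDC array left out (adjusted p 0.0227 for each). Npm1 differed by 0.02 ± 0.04 (adjusted p 0.817) and turned to -0.21 under quantile normalisation. Dkc1 differed by -0.09 ± 0.19 (adjusted p 0.786), Polr1b by -0.09 ± 0.18 (adjusted p 0.763) and Pes1 by 0.25 ± 0.10 (adjusted p 0.0962), the last with its other probe at -0.23. Counts of calls depended on the setting: 12 of the 36 were lower under quantile normalisation, 11 in the authors' table and 1, Ncl, with array medians. Leaving out WT GMP replicate 1 or 2 or replicate 1 or 2 of the arrays labelled IRF8KO gave 1992, 1902, 1851 and 1935 calls over all genes, in place of 3058, and 4 of the 36 lower each time. Leaving out an array of another group, which changes only the shared estimate of the spread, gave up to 9 lower.

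Erythroid markers differed between the GMP groups as well. All 5 were lower on the arrays labelled IRF8KO, and their summed level was 49.4 to 50.3 in WT GMP and 4.35 to 4.42 there. The 6 neutrophil markers summed to 9.63 to 10.1 in WT GMP and 36.4 to 38.8 on the arrays labelled IRF8KO. Their part in the differences of the 36 genes was not tested.

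Of MYC's relatives, Mycn was like Myc highest in a GMP group, while Mycl followed another course. Mycn, the paralogue that can act in place of MYC in progenitors, stood at 1.54 and 1.51 in WT GMP and -0.04 and 0.01 on the arrays labelled IRF8KO (-1.54 ± 0.22; adjusted p 0.00184). It was not well above background in CDP, at least 22.5-fold lower than in WT GMP, nor in Neu, at least 21.4-fold lower, nor in pre-cDC or CD8+ cDC. Mycl, the third paralogue, rose from CDP to pre-cDC to CD8+ cDC. It was not well above background in either GMP group or in Neu, stood at -0.67 and -0.70 in CDP (at least 7.65-fold higher than in WT GMP), at 1.31 and 1.16 in pre-cDC (1.92 ± 0.22 above CDP; adjusted p 7.41e-05) and at 3.79 and 3.84 in CD8+ cDC (2.58 ± 0.22 above pre-cDC; adjusted p 1.71e-05). CD8+ cDC exceeded Neu at least 104-fold. In CD4+ cDC, scaled over their own design's probes, Mycl stood at -1.68 and -1.51 and was well above background on both arrays.

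The dimer partner Max and the repressors Mxd1 and Mnt were highest in neutrophils. Among the 6 groups of the larger design, 33.0% of the 13552 genes well above background in some group were also highest there. Max stood at 4.26 and 4.32 in WT GMP, 4.84 and 4.8 in CDP, 3.83 and 3.73 in pre-cDC, 3.68 and 3.88 in CD8+ cDC and 7.13 and 7.23 in Neu, where it was 2.89 ± 0.09 above WT GMP (adjusted p 1.44e-08). Mxd1, which represses MYC's targets with MAX, stood at 0.74 and 0.82 in WT GMP, 1.12 and 1.10 on the arrays labelled IRF8KO, 1.09 and 1.10 in CDP, 0.59 and 0.34 in pre-cDC, 3.15 and 3.04 in CD8+ cDC and 7.92 and 7.96 in Neu. Its rise from WT GMP to Neu was 7.16 ± 0.08 (adjusted p 1.42e-10), with no overlap between Neu and any other group. Mnt changed less, from 4.22 and 4.18 in WT GMP to 4.89 and 4.95 in Neu (0.72 ± 0.05; adjusted p 2.48e-06). Mxi1 was not well above background in any of the 6 groups. Of the 11 genes of this network list, 9 were tested in Neu against WT GMP, with 5 higher and 4 lower. The 4 lower genes were Mycn, Mxd3, Mga (-2.43 ± 0.12) and Mlxip (-1.44 ± 0.10). Mxd3 was not well above background in Neu.

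**Figure D4:**
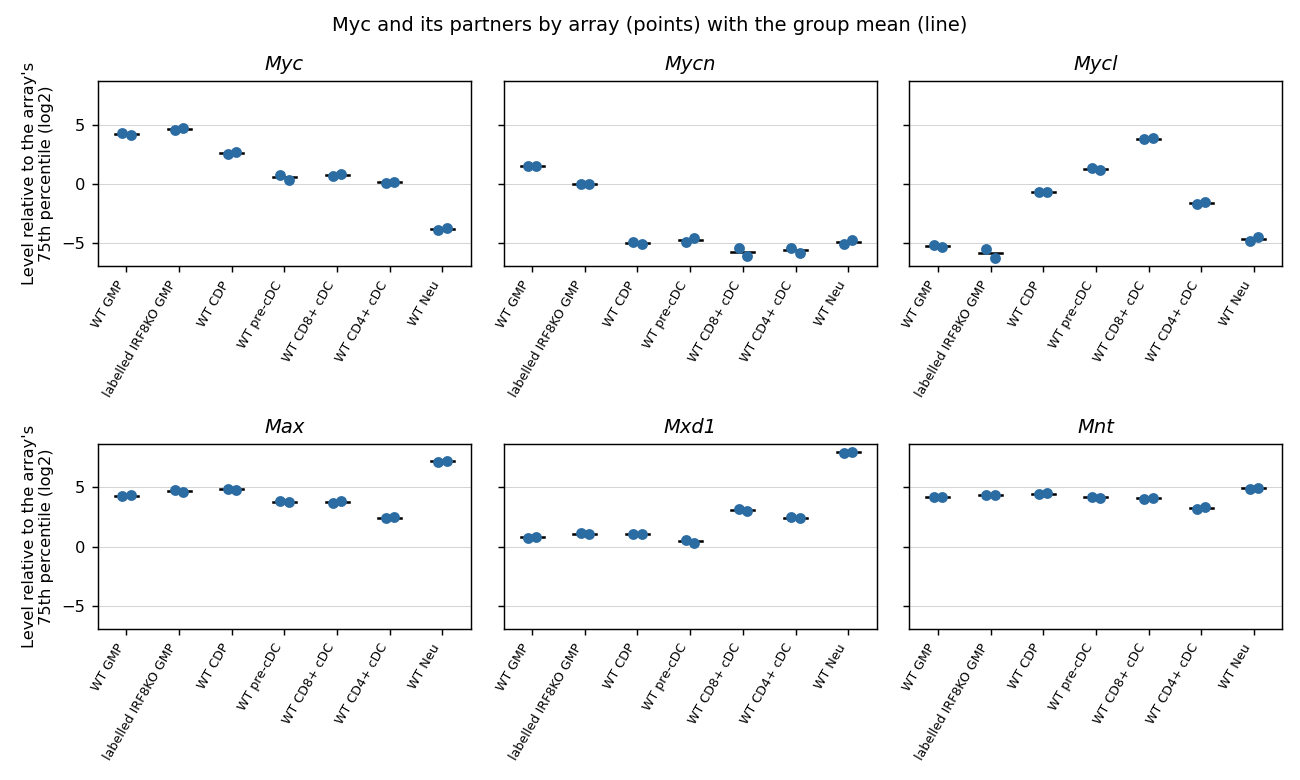
Levels of Myc, Mycn, Mycl, Max, Mxd1 and Mnt on each array (points) with the group mean (line), as log2 relative to the array's 75th percentile. CD4+ cDC are scaled over their own design's probes. Myc and Mycn are highest in the GMP groups, Mycl in CD8+ cDC, and Max, Mxd1 and Mnt in Neu.

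Further lists of the same pathway gave the setting for the 36 genes. Of 69 other ribosome biogenesis genes on the arrays, 67 were tested in Neu against WT GMP: 60 were lower and 4 higher, with a median of -2.77. Rrp15 and Rrs1, both factors of the large subunit, were not well above background in Neu and were at least 39.8-fold and at least 78.5-fold lower. Among 20 other MYC targets 19 were lower and 1 higher (median -3.48), led by Apex1, a DNA repair endonuclease (-7.99 ± 0.18), and Srm, spermidine synthase (-7.68 ± 0.07). Apex1 was well above background on only 1 Neu array, so the size of its fall is uncertain. Of 29 cytosolic ribosomal protein genes, the product side of the same machinery, 26 were lower and 2 higher with a smaller median of -1.59, and Rpl3 fell furthest (-4.13 ± 0.06). All 24 of 24 cell-cycle genes were lower (median -3.56), led by the replication helicase genes Mcm2 (-7.02 ± 0.09) and Mcm3 (-6.62 ± 0.07). Of 10 reference genes, 6 were higher and 3 lower (median 0.95), with Hprt at -2.36 ± 0.06 and Actb at 2.2 ± 0.12.

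CD8+ cDC against neutrophils gave 53 of 67 other biogenesis genes higher and 6 lower (median 2.01), 18 of 20 other MYC targets higher and 2 lower (2.45), all 29 ribosomal protein genes higher (2.23) and 23 of 24 cell-cycle genes higher (2.44). Reference genes gave 3 higher and 6 lower (-0.71). Sdad1, another biogenesis factor, led its list at 6.59 ± 0.18.

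From CDP to pre-cDC, 49 of 66 other biogenesis genes were lower and 5 higher (median -1.04, or -0.49 relative to all genes). Rrp15 and Ppan, both of the large subunit, changed by -2.81 ± 0.08 and -2.34 ± 0.09. Other MYC targets gave 17 of 19 lower and 1 higher (-1.51), with Nme1 at -2.14 ± 0.06 and the cyclin gene Ccnd2 at -2.05 ± 0.08. Ribosomal protein genes gave 28 of 29 lower (-1.30), which became 18 lower and 3 higher under quantile normalisation. Cell-cycle genes gave 19 of 24 lower and 2 higher (-0.79), which became 13 and 9 under quantile normalisation.

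From WT GMP to CDP the lists parted from the 36 genes, and their counts turned with the scaling. Other biogenesis genes gave 26 of 67 higher and 26 lower (median -0.05, or -0.36 relative to all genes), and 7 higher and 36 lower under quantile normalisation. Ribosomal protein genes gave 28 of 29 higher (1.39), but 10 higher and 11 lower under quantile normalisation. Cell-cycle genes gave 20 of 24 higher and 4 lower (1.20), and 14 and 5 under quantile normalisation. Other MYC targets gave 11 of 20 higher and 6 lower (0.30), but 2 higher and 12 lower under quantile normalisation. Mdn1, the large-subunit remodelling ATPase, fell furthest among the other biogenesis genes (-2.66 ± 0.14). All 10 reference genes were higher (0.76), but 3 higher and 6 lower under quantile normalisation.

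From pre-cDC to CD8+ cDC, cell-cycle and ribosome genes moved apart: 23 of 24 cell-cycle genes were lower and 0 higher (median -1.53), with Top2a at -2.76 ± 0.10 and Ccna2 at -2.54 ± 0.06, while 26 of 29 ribosomal protein genes were higher and 0 lower (0.66). Under quantile normalisation the ribosomal protein genes gave 18 higher and 2 lower. Other biogenesis genes gave 29 of 67 higher and 17 lower (0.12), with Sdad1 at 2.48 ± 0.18. Other MYC targets gave 8 of 20 in each direction (-0.17), with Tfrc, the transferrin receptor, at -3.40 ± 0.10 and Ccnd2 at -3.23 ± 0.08. Between the GMP groups, 12 of 24 cell-cycle genes were lower on the arrays labelled IRF8KO and 0 higher (-0.28), a count that was 0 with array medians. Other MYC targets gave 6 of 20 lower and 0 higher (-0.17), with Mthfd2 at -0.71 ± 0.13, and other biogenesis genes 6 of 68 lower and 1 higher (-0.04). Ribosomal protein genes gave 10 of 29 higher and 0 lower (0.19), which became 1 in each direction under quantile normalisation.

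**Figure D5:**
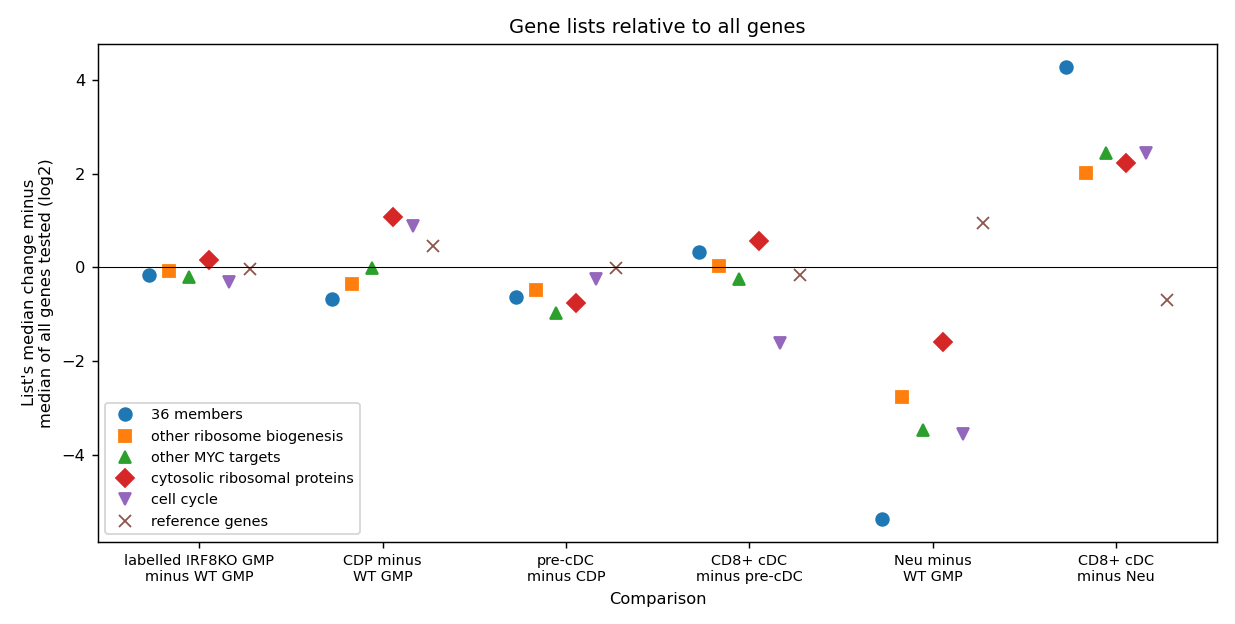
Median change (log2) of each gene list in the 6 comparisons, minus the median of all genes tested in that comparison. The 36 genes lie 5.37 below all genes in Neu against WT GMP and 4.29 above them in CD8+ cDC against Neu, further from 0 than the other lists plotted.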

How the data were processed

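RNA of 7 sorted groups, 2 arrays each, was labelled with Cy3 by low-input amplification, per the labels' protocols. Scanner files carry processed signal intensities deposited by the authors, made with Agilent Feature Extraction 10.7.3.1 per the file headers. A table of the authors' own values, on a linear scale, served as an alternative. Its sorted values were identical in every column (median 46.0), which is what quantile normalisation yields. Results from it are therefore not separate from those of the quantile setting. The labels and headers do not state its normalisation.

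From log2 of the deposited processed intensity, averaged per probe where it had several spots, the array's own 75th percentile was subtracted. Of 55681 probes, 26762 got 1 gene symbol through their accession in RefSeq (GRCm38.p6), none several and 28919 no symbol. 1 limma 3.58.1 model (R 4.3.3) covered the 12 arrays of the larger design, with moderated tests and Benjamini-Hochberg adjustment at 0.05, after a test on simulated data. The files have no mean-signal column, so normexp (offset 50) used median signals.

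The 36 genes and all lists were chosen with earlier results of these data known. 1 listed erythroid marker is not reported here. Values on every array are given for Myc, Npm1, Ncl, Fbl, Dkc1, Pes1 and Polr1b and, per comparison, for up to 3 called members with the largest rise and 3 with the largest fall and no overlap; Noc2l and other singled-out values were chosen after they were seen. Outside the members, the 2 largest called changes per list were eligible, besides Mycn, Mycl, Max, Mxd1, Mxi1 and Mnt. Mxd3, Mga and Mlxip were named because they were called lower in Neu. Same-numbered replicates did not deviate together (r -0.06 to 0.04 over 15 pairs of groups). Alternatives were other scalings, background corrections, filters, probe summaries, a 4-array fit and leaving out each array.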

Additional observations from a re-analysis of the deposited data

How the results depend on the processing

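With 2 arrays a group and each scaled to itself, counts of small changes move with the scaling; the cause of the moves below was not tested. Arrays labelled IRF8KO against WT GMP: 12 of the 36 genes were lower under quantile normalisation, 11 with the percentile over detected probes, 11 in the authors' table and 1 with array medians, which called 1485 genes in all; 2 were higher after normexp and 2 in the 4-array fit. Leaving out each of the 12 arrays in turn gave 0 to 2 higher, 4 to 9 lower and 1851 to 3234 genes in all.

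CDP against WT GMP: 0 were higher under quantile normalisation, with the percentile over detected probes, after normexp and in the authors' table, and 3 with array medians; 32 were lower after normexp. CDP to pre-cDC: 1 was higher under quantile normalisation, 1 with the percentile over detected probes and 1 in the authors' table. Pre-cDC to CD8+ cDC: 4 were lower with array medians. Testing only genes well above background in both groups left 19 lower in Neu against WT GMP and 18 higher in CD8+ cDC against Neu, since fewer genes were tested. Apart from leaving out arrays, the other alternatives kept each count of members called higher or lower, and each total of all genes called, within 1.5 times of the main one. With each of the 12 arrays left out in turn, the members called higher and lower ranged over 5 to 7 and 16 to 21 (CDP), 0 and 30 to 35 (pre-cDC), 19 to 21 and 6 to 8 (CD8+ cDC against pre-cDC), 1 to 2 and 34 to 35 (Neu), and 33 to 34 and 1 (CD8+ cDC against Neu). The median changes then ranged from -0.16 to -0.09 (GMP groups), -0.38 to -0.33 (CDP), -1.21 to -1.17 (pre-cDC), 0.38 to 0.45 (CD8+ cDC against pre-cDC), -5.51 to -5.36 (Neu) and 4.05 to 4.41 (CD8+ cDC against Neu).

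Single genes that changed sign, in the order quantile normalisation, percentile over detected probes, normexp, authors' table, from WT GMP to CDP: Nop56 gave -0.47, -0.21, -0.29 and -0.48; Nop58 -0.55, -0.48, -0.63 and -0.54; Ncl -0.78, -0.48, -0.43 and -0.77; Polr1a -0.14, -0.20, -0.074 and -0.13; Bysl -0.091, -0.13, -0.16 and -0.093; Bop1 -0.22, -0.17, -0.34 and -0.21. Nhp2 gave -0.15 under quantile normalisation and -0.14 in the authors' table, Pes1 -0.16 with the percentile over detected probes, and Pno1 -0.50 and Nop16 -0.43 after normexp. With the mean of all probes Nop56 gave -0.27, Ncl -0.79 and Pes1 -0.38, and Noc2l ranged from -0.30 to 9.61 without WT GMP replicate 1 or 2. From CDP to pre-cDC, Fbl gave 0.36, 0.29, 0.12 and 0.38 in the same order and Rrp1b 0.094 with the percentile over detected probes. From pre-cDC to CD8+ cDC, Nop56 gave -0.13 and Nolc1 -0.14 with the mean of all probes, Bop1 0.068 with array medians and Wdr74 1.18 in the authors' table. Between the GMP groups Npm1 gave -0.21 under quantile normalisation and -0.20 in the authors' table. In Neu against WT GMP, Noc2l ranged from -6.44 to 3.47 without WT GMP replicate 1 or 2, and in CD8+ cDC against Neu, Bysl gave 0.26 with the percentile over detected probes. With the replicate number as a block, the 36 genes gave the same counts in all 6 comparisons (0 and 6, 6 and 20, 0 and 32, 20 and 8, 1 and 34, 33 and 1), and all genes 2683, 9186, 9587, 9296, 11507 and 10921 calls; the numbers are only labels here.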
